A study of Mus musculus with 2 samples.

Results

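Osteopontin, a secreted phosphoprotein encoded by Spp1, and 5 of its receptor genes were described across the cell types of the mouse ovary. The 6 genes, Spp1, Cd44, Itgav, Itgb1, Itgb3 and Itgb5, were chosen by name, with Spp1 levels in these data already known, from 29373 gene symbols listed in either library. All 6 were listed in both libraries. Osteopontin carries an arginine-glycine-aspartate motif that binds integrins, which are paired alpha and beta subunits on the cell surface. The alpha subunit encoded by Itgav pairs with the beta subunits encoded by Itgb1, Itgb3 and Itgb5, and CD44, best known as a hyaluronan receptor, is a further osteopontin receptor. In many tissues osteopontin is made by macrophages that take up lipid or debris and by fibroblasts that lay down matrix, and in the ovary it has been described in the corpus luteum, the gland that forms from the follicle after ovulation.

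Ovaries of female ICR mice, an outbred strain, were dissociated and single cells were captured with the BD Rhapsody system, in which each transcript molecule is counted once through its molecular identifier (UMI). The control library came from mice that received ddH2O, and the PS-MP library from mice that received 1 mg of 0.1 µm polystyrene microplastics in 100 µL per mouse by daily oral gavage. Both groups were treated for 35 days from 3 weeks of age and sampled at 8 weeks. The labels name 16 mice without saying whether that is per group, and nothing ties a cell to an animal, so each group was 1 library. No difference between the groups therefore had a replicate check, no test was made, and every interval below is a 95% interval for counting error only.

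After filtering, 14538 control cells and 14412 PS-MP cells remained, with a median of 9502.5 and 8643 UMIs per cell. The libraries shared 3 cell barcodes. The cells fell into 19 clusters, which marker genes placed in 12 classes. The classes included 10241 control and 9121 PS-MP granulosa-like cells, 1793 and 1618 stromal fibroblast-like cells, 704 and 671 theca-like cells, and 742 and 353 macrophage or monocyte-like cells. There were 350 control and 313 PS-MP blood endothelial-like cells. Oocyte-like cells numbered 76 and 93, so the markers of ovarian somatic and germ cells were both present. The luteal-like class was held by different clusters in the libraries. A cluster high in Akr1c18, the progesterone-degrading enzyme of the ageing corpus luteum, had 231 control and 129 PS-MP cells, whereas a cluster high in Edn2, the endothelin gene induced around ovulation, had 6 control and 1902 PS-MP cells. Spp1 was itself among the 10 leading genes of the Edn2-high cluster, so its level there is a description. Some of the 7 granulosa-like clusters had no granulosa marker among their 10 leading genes, so granulosa values are also given by cluster.

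Spp1 was the member whose level differed most between the libraries. Over all kept cells it was at 26.3 CPM (UMIs of the gene per 1000000 UMIs) in control cells and at 154 CPM in PS-MP cells, giving a ratio of 5.86 (5.67 to 6.06). At least 1 Spp1 UMI was found in 2.68% of control and 10.8% of PS-MP cells. The Edn2-high cluster held 83.8% of the Spp1 UMIs of the PS-MP library in 13.2% of its cells. Without that cluster Spp1 was at 26.3 and 29.5 CPM, giving a ratio of 1.12 (1.07 to 1.17). Macrophage or monocyte-like cells held 69.3% of the Spp1 UMIs of the control library in 5.10% of its cells, and 4.78% of those of the PS-MP library in 2.45%.

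**Figure D1:**
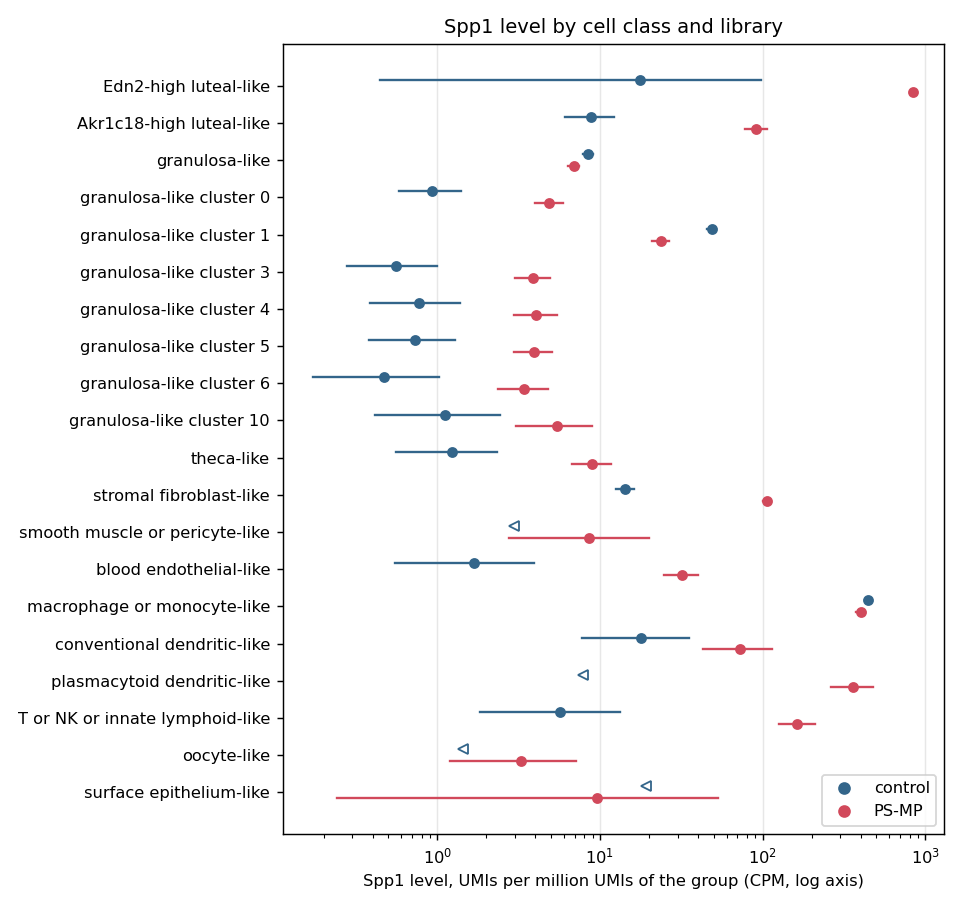
Spp1 level in each cell class and luteal-like cluster, in CPM on a log axis, for the control and the PS-MP library. Points are levels of summed UMIs, bars are 95% counting intervals, and open symbols mark a class with no Spp1 UMI, drawn at the limit that a count of 0 allows. The Edn2-high cluster of the PS-MP library (844 CPM) and the macrophage or monocyte-like cells of both libraries (443 and 402 CPM) stand above the stromal and granulosa-like cells.

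In the Edn2-high cluster of the PS-MP library Spp1 reached 844 CPM (831 to 856). At least 1 UMI was found in 959 of 1902 cells, or 50.4% (48.1 to 52.7, exact binomial), and in 40.1% after each cell was thinned to 3500 UMIs. The level was uneven: 461 cells with 10 or more Spp1 UMIs, a limit chosen after the values were seen, held 90.6% of the cluster's Spp1 UMIs. The most in a cell was 255 UMIs, and without those cells the level was 114.6 CPM. The 6 control cells of this cluster held 1 Spp1 UMI in all.

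Within the Edn2-high cluster, cells were grouped again without using Spp1, while the receptor genes were not held out. The sub-cluster led by Cck, Nts, Lox, Tnc and Sfrp2, with 303 PS-MP cells, had Spp1 at 2478 CPM and held 222 of the cells with 10 or more UMIs. Lox cross-links collagen, Tnc encodes the matrix protein tenascin-C, and Cck and Nts encode secreted peptides. A sub-cluster of dividing cells had 1319 CPM, and the other sub-clusters of over 100 cells had between 125 and 675 CPM. Itgb3 was also at its highest among those sub-clusters in the Cck-led cells, at 71.7 CPM.

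In the Akr1c18-high cluster, which both libraries held, Spp1 was at 8.76 CPM (6.10 to 12.2) in the control and 91.3 CPM (78.0 to 106.2) in the PS-MP library, giving a ratio of 10.4 (7.21 to 15.5). The share of cells with a UMI was 6.49% in the control and 25.6% in the PS-MP library, although the control cells were deeper, with a median of 15998 against 12885 UMIs. No control cell and 3 PS-MP cells held 10 or more Spp1 UMIs, and the ratio was 5.06 without them. In this cluster 11.4% of the genes at 20 CPM or more in a library differed by at least 1.5-fold, and 2 of the 6 members did, Spp1 higher and Cd44 lower in the PS-MP library.

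Macrophage or monocyte-like cells carried Spp1 at 443 CPM (426 to 459) in the control and 402 CPM (377 to 427) in the PS-MP library, giving a ratio of 0.907 (0.844 to 0.975). Spp1 was found in 28.7% of control cells and 28.3% of PS-MP cells, and in 21.7% and 21.8% after thinning, at median depths of 6835 and 5669 UMIs. As in the luteal-like cells, few cells held most of the transcript: 73 control and 28 PS-MP cells with 10 or more UMIs held 84.7% and 82.6% of it. Without those cells the levels were 79.5 and 80.2 CPM, giving a ratio of 1.01. Of the genes compared in this class 5.48% differed by at least 1.5-fold, and 0 of the 5 members at 20 CPM or more did.

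The macrophage or monocyte-like class was grouped again in the same way, and its sub-clusters differed widely in Spp1. Cells led by Arg1, Fn1, Chil3 and Ly6c2, genes of recruited monocytes and of alternatively activated macrophages, had Spp1 at 1289 CPM in the control and 969.9 in the PS-MP library, giving a ratio of 0.753 (0.659 to 0.858). Cells led by Gpnmb, Ctsk and Mmp12, which mark lysosome-rich macrophages, had 995 and 1077 CPM. Cells led by Siglec1, Vcam1 and the iron exporter gene Slc40a1, a resident macrophage profile with the complement gene C1qa at 2386 and 2371 CPM, had Spp1 at 3.63 and 14.1 CPM. Cells led by Cd209a and Ccl17 had 65.5 and 179 CPM. A sub-cluster led by granulosa genes had 122 and 17.8 CPM, another led by stromal genes had 39.0 and 253 CPM in 10 and 27 cells, and a further one led by immunoglobulin genes had none. Without these last 3 sub-clusters the ratio over the class was 0.994.

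Stromal fibroblast-like cells had Spp1 at 14.3 CPM (12.6 to 16.3) in the control and 105.9 CPM (100.4 to 111.5) in the PS-MP library, giving a ratio of 7.39 (6.44 to 8.50). Spp1 UMIs were found in 29 of the control cells and 101 of the PS-MP cells, or 1.62% and 6.24%, and in 0.948% and 4.39% after thinning, at median depths of 8500 and 7528.5 UMIs. Of the stromal genes compared, 1.08% differed by at least 1.5-fold, and Spp1 was the 1 of 6 members that did. Here 6 control and 22 PS-MP cells with 10 or more UMIs held 79.7% and 87.9% of the transcript, and without them the levels were 2.93 and 13.1 CPM, giving a ratio of 4.48.

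Most of the stromal Spp1 lay in a sub-cluster led by Tnc, Ptprn, Ctsc, Timp1 and Lox. Spp1 itself was the leading gene of this sub-cluster and among the leading genes of the Cck-led luteal-like cells, so these levels are descriptions. In the 113 control and 228 PS-MP cells of the Tnc-led sub-cluster, Spp1 was at 203 CPM in the control and 622 CPM in the PS-MP library, giving a ratio of 3.06 (2.66 to 3.55). The other 7 stromal sub-clusters lay between 0 and 4.62 CPM in the control and between 5.49 and 56.9 CPM in the PS-MP library, highest in a sub-cluster led by granulosa genes. Without the Tnc-led sub-cluster stromal Spp1 was at 0.892 and 14.6 CPM, giving a ratio of 16.4.

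Granulosa-like cells had Spp1 at 8.45 CPM in the control and 6.90 CPM in the PS-MP library, giving a ratio of 0.817 (0.736 to 0.906), yet the direction was not shared by their clusters. The cluster led by H19, Galnt15, Pik3ip1 and Col11a1 had 48.6 CPM (45.4 to 51.9) in the control and 23.6 CPM (21.0 to 26.5) in the PS-MP library, giving a ratio of 0.487 (0.425 to 0.556). In it, 17 control and 6 PS-MP cells with 10 or more Spp1 UMIs held 85.5% and 60.3% of the transcript, and without them the levels were 7.13 and 9.44 CPM. The other 6 granulosa clusters lay between 0.468 and 1.12 CPM in the control and between 3.42 and 5.45 CPM in the PS-MP library, with ratios between 4.86 and 7.31. Pooled, these 6 clusters had 0.737 and 4.19 CPM, giving a ratio of 5.69. The lower granulosa level of the PS-MP library thus rested on the H19-led cluster. Of the granulosa genes compared 0.531% differed by at least 1.5-fold, and 0 of the 3 members at 20 CPM or more did.

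Theca-like and endothelial cells held few Spp1 UMIs. Theca-like cells had 9 control and 55 PS-MP UMIs, or 1.22 and 8.95 CPM, and 2 cells held 52.7% of the PS-MP UMIs. When cells were limited to a mitochondrial share of 10%, the theca levels were 1.10 and 1.73 CPM, giving a ratio of 1.58 in place of 7.31 (3.58 to 16.8). Blood endothelial-like cells had 5 control and 71 PS-MP UMIs, or 1.69 and 31.9 CPM, giving a ratio of 18.9 (7.72 to 59.9). Of the endothelial UMIs of the PS-MP library 80.3% came from 2 cells, without which the level was 6.34 CPM and the ratio 3.76. At least 1.5-fold differences were found for 1.95% of theca and 5.57% of endothelial genes, and for 0 of 5 and 2 of 5 members, Spp1 and Itgb5 in endothelial cells.

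**Figure D2:**
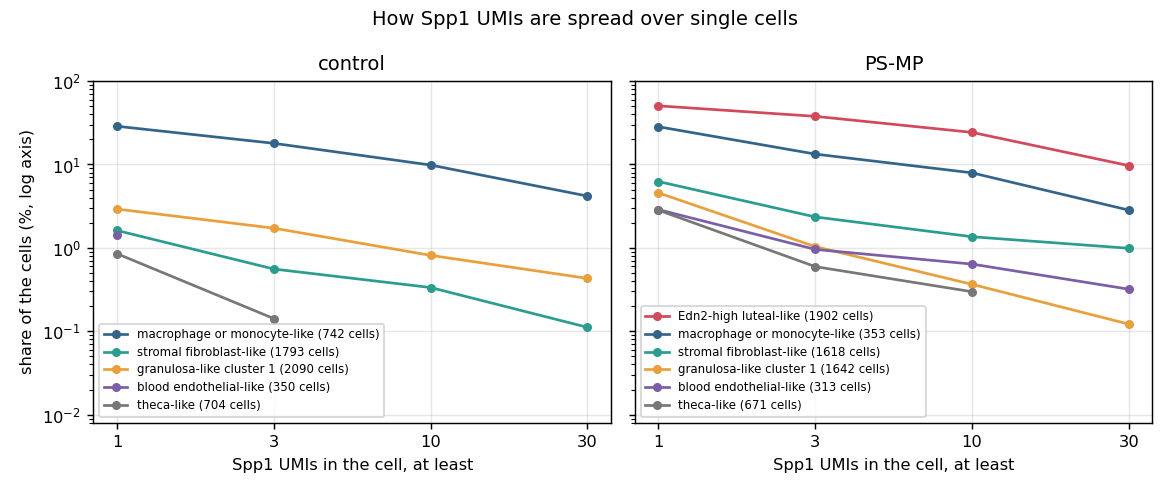
Share of cells, in percent on a log axis, that held at least 1, 3, 10 or 30 Spp1 UMIs, by cell class in the control (left) and PS-MP library (right); granulosa-like cluster 1 is the H19-led cluster, and a share of 0 is not drawn. At 1 UMI or more the Edn2-high cluster stands at 50.4% and macrophage or monocyte-like cells at 28.7% and 28.3%, and stromal cells stand at 1.62% and 6.24%.

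Free RNA from broken cells can place a transcript in cells that do not make it, so Spp1 was set beside genes that mark the likely sources. In the PS-MP library, the 6 granulosa clusters with low Spp1 held it at 0.41% to 0.65% of the Edn2-high level, and oocyte-like cells at 0.39%, 3.29 CPM, with a UMI in 6 of 93 cells at a median depth of 15442 UMIs. In the control library 0 of 76 oocyte-like cells had an Spp1 UMI, which allows a level of up to 1.44 CPM at a median depth of 22942.5 UMIs. Luteal marker genes (Akr1c18, Cemip, Edn2, Ptgfr, Timp4 and Tinagl1) were at 0.75% to 1.86% of their Edn2-high level in oocyte-like cells. Theca-like cells had Spp1 at 1.06% and the luteal markers at 1.37% to 21.7%. Spp1 was below all 6 luteal markers in theca-like and oocyte-like cells and in 5 of the 6 low granulosa clusters. In the other it was above 1 of them. The markers were an uneven gauge, since Akr1c18 and Ptgfr led the Akr1c18-high cluster and not the Edn2-high one. Cemip was at 66.1 CPM in control and 46.2 CPM in PS-MP theca-like cells, although the control held only 6 Edn2-high cells. A level below these markers therefore does not measure free RNA, and its part was not tested. In the Akr1c18-high cluster the luteal markers are genes of the cells themselves, so free Spp1 RNA could not be gauged by them there. Spp1 in this cluster stood at 59.2% of the level over all kept cells of the PS-MP library. Fixed marker genes of other cell types had a median of 4.61%, and 1 of 26 was above Spp1. For the control library the values were 33.2% and 5.21%, and 3 of 26 were above. The part of free RNA was not tested.

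Over the stromal class as a whole, Spp1 lay above those markers. It stood at 12.6% of the Edn2-high level, against 0.92% to 3.0% for the luteal markers in the same cells. Most stromal Spp1 lay in the Tnc-led sub-cluster, at 622 CPM. The other stromal sub-clusters had 5.49 to 56.9 CPM, against 844 CPM in the Edn2-high cluster. They were not gauged separately, and the part of free RNA in their levels was not tested. Against the level over all kept cells of the PS-MP library, stromal Spp1 reached 68.6%, while fixed marker genes of other cell types had a median of 5.51% and 3 of 28 were above Spp1. For macrophage or monocyte-like cells the values were 260% and 22.2%, and 2 of 28 were above. For the H19-led granulosa cluster they were 15.3% and 5.67%, and 7 of 28 were above. In the control library, where Spp1 lay mainly in macrophages, this cluster held Spp1 at 11.0% of the macrophage level, against 0.05% to 0.26% for C1qa, C1qb, C1qc and Lyz2 in the granulosa clusters. Endothelial cells of the PS-MP library had Spp1 at 3.78% of the Edn2-high level and the luteal markers at 1.95% to 13%, and the part of free RNA was not tested.

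**Figure D3:**
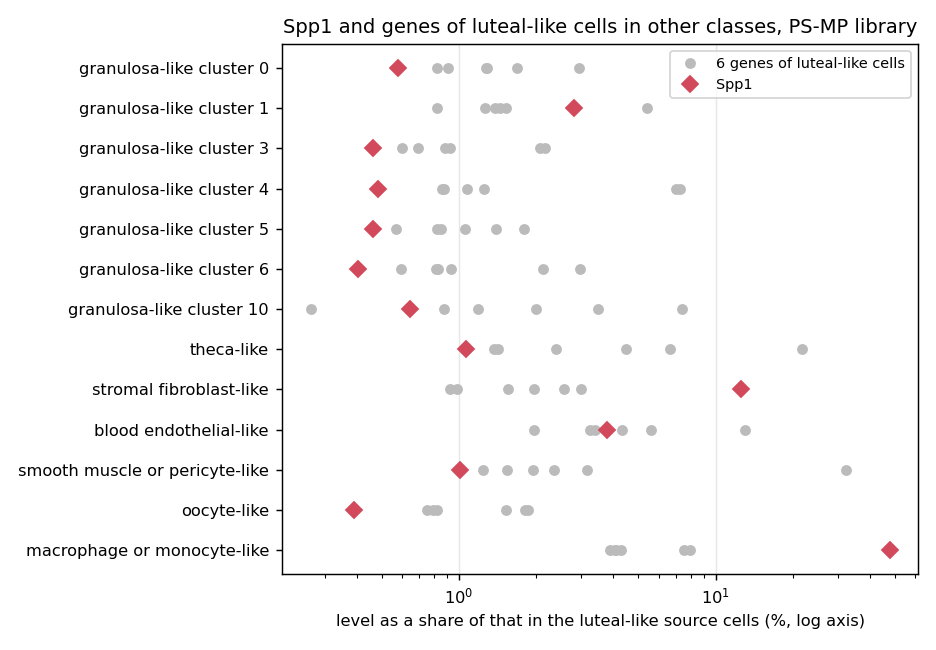
Spp1 (diamonds) and 6 luteal marker genes (grey points) in each cell class and granulosa cluster of the PS-MP library, as a percentage of their level in the Edn2-high cells, on a log axis. Spp1 lies above the marker genes in stromal cells (12.6% against 0.92% to 3.0%) and in macrophage or monocyte-like cells, and below all 6 in theca-like and oocyte-like cells.

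The cells with 10 or more Spp1 UMIs were compared with cells that had none in the same class. They were chosen by Spp1 and were deeper, with medians of 11388.5 against 7480 UMIs among PS-MP stromal cells, so the following levels are a description. PS-MP stromal cells of this kind had no UMI of Edn2 or C1qa, 1 UMI of the macrophage gene Lyz2, and Col1a1, a fibrillar collagen gene, at 9823 against 5892 CPM. Timp1, a metalloproteinase inhibitor, was at 2043 against 154 CPM in them, and Tnc at 1231 against 63.0 CPM. In control stromal cells the same genes stood at 2125 against 104 CPM and 1218 against 46.8 CPM. The luteal marker Tinagl1 was at 204 against 37.7 CPM in PS-MP and 90.7 against 19.1 CPM in control stromal cells. Cyp11a1, a further marker of the luteal-like class, was at 237 against 129 CPM and 38.9 against 49.0 CPM. The control cells of the H19-led granulosa cluster had Timp1 at 344 against 27.3 CPM and Tnc at 156 against 10.7 CPM, with no UMI of Edn2, C1qa or Cd44. They also had 9 UMIs of Lyz2, at 41.3 against 12.4 CPM, and Col1a1 at 73.4 against 16.3 CPM. Tinagl1 stood at 1137 against 53.0 CPM in these cells, from 248 UMIs, and Cyp11a1 at 64.2 against 38.4 CPM. The inhibin gene Inha, a granulosa marker, was at 1380.0 against 3973 CPM in them, and Lgals3, which encodes galectin-3, at 220.1 against 27.0 CPM. In the Edn2-high cluster Timp1 was at 488 against 215 CPM and Tnc at 98.1 against 7.90 CPM. Timp1 was thus higher beside Spp1 in luteal-like, stromal and granulosa-like cells. The same held in control macrophage or monocyte-like cells, at 64.1 against 26.4 CPM from 60 UMIs in the Spp1-rich cells. In the PS-MP library the macrophage values were 46.3 against 28.6 CPM, from only 15 UMIs in the Spp1-rich cells.

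Receptor genes were also higher in some of these cells. Itgb5 was at 371 against 94.2 CPM in PS-MP stromal cells with 10 or more Spp1 UMIs, and at 376 against 85.7 CPM in the control. Cd44 was at 111 against 37.8 CPM and at 194 against 34.6 CPM in the same cells, from 30 UMIs in 22 PS-MP and 15 UMIs in 6 control cells. Itgb3 was at 248 against 26.0 CPM in control cells of the H19-led granulosa cluster, from 54 UMIs in 17 cells with 10 or more Spp1 UMIs. In the PS-MP library it was at 128 against 27.4 CPM, from only 9 UMIs in 6 such cells. It was at 53.0 against 17.0 CPM in the Edn2-high cluster. Itgav did not follow Spp1 in the Edn2-high cluster, with 140 CPM in both kinds of cell. Macrophages with 10 or more Spp1 UMIs had Gpnmb at 2233 against 156 CPM in the control and 2502 against 190 CPM in the PS-MP library. A Gpnmb UMI was found in 43 of the 73 control and 15 of the 28 PS-MP cells of this kind. The fatty acid carrier Fabp5 was at 2344 against 267 and 3292 against 254 CPM in them. Fam20c, the kinase that phosphorylates osteopontin, was at 152 against 35.1 and 247 against 48.2 CPM. Itgb5 did not separate control macrophages by Spp1, with 185 CPM in both kinds of cell.

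Cd44 was highest in immune cells of both libraries. Macrophage or monocyte-like cells had 354 CPM in each, giving a ratio of 1.00 (0.924 to 1.08), with a UMI in 74.8% and 74.2% of cells. Plasmacytoid dendritic-like cells had 519 and 429 CPM, and conventional dendritic-like cells 235 and 245 CPM. Stromal cells had 35.6 and 41.0 CPM, giving a ratio of 1.15 (1.02 to 1.3), and theca-like cells 37.6 and 35.0 CPM. Granulosa-like cells had 2.47 and 1.92 CPM, from 272 and 170 UMIs. Oocyte-like cells had 1.44 and 1.64 CPM, from only 3 UMIs in each library. Granulosa Cd44 thus stood near its level in germ cells, although so few UMIs leave the germ cell level uncertain.

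The Akr1c18-high cluster had Cd44 at 23.3 CPM in the control and 7.61 CPM in the PS-MP library, from 93 and 14 UMIs, giving a ratio of 0.327 (0.172 to 0.577). The control value was 6.57% of the macrophage level, whereas C1qa, C1qb, C1qc and Lyz2 stood at 0.10% to 0.22%. The Edn2-high cluster had 8.34 CPM. Over all kept cells Cd44 was at 25.7 and 15.8 CPM, giving a ratio of 0.615 (0.583 to 0.648), one of 2 members past 1.5-fold where 3.51% of all genes were. Without the Edn2-high cluster the ratio was 0.667 (0.632 to 0.704), and 0 of 6 members were past 1.5-fold, against 1.2% of genes. Macrophage or monocyte-like cells, with the same Cd44 level in both libraries, made up 5.10% of control and 2.45% of PS-MP cells, and the part of this in the lower total was not tested.

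Itgav, which encodes the alpha subunit that pairs with the products of Itgb1, Itgb3 and Itgb5, was found in all large classes. It was highest in granulosa-like cells. It was at 363 CPM in control and 377 CPM in PS-MP granulosa-like cells, giving a ratio of 1.04 (1.02 to 1.05), and between 145 and 499.6 CPM over the control clusters and 149 and 505 CPM over the PS-MP clusters, highest in the H19-led cluster. Macrophage or monocyte-like cells had 157 and 183 CPM, giving a ratio of 1.16 (1.04 to 1.3), which was 0.958 after a carried-over share was subtracted, and stromal cells 143 and 136 CPM. Theca-like cells were lowest of the large classes, with 73.5 and 73.0 CPM. The small class of T, NK or innate lymphoid-like cells had 234 and 223 CPM, next below granulosa-like cells. Oocyte-like cells had 94.8 and 133 CPM, giving a ratio of 1.40 (1.15 to 1.70).

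Itgb1, a beta subunit shared by many matrix receptors, was found in every class at 234 CPM or more among classes of at least 50 cells in a library. Its level was highest in smooth muscle or pericyte-like cells, at 1602 and 1325 CPM, followed by blood endothelial-like cells at 1120.5 and 1104 CPM and stromal cells at 829 and 784 CPM. Granulosa-like cells had 406 and 376 CPM, giving a ratio of 0.926 (0.913 to 0.940). Over the granulosa, stromal, theca, endothelial and macrophage classes the ratio lay between 0.926 and 0.986, a difference of under 1.5-fold in each.

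Itgb3, the subunit that makes the classical vitronectin receptor with Itgav, was highest in the Akr1c18-high cluster and in stromal cells. The Akr1c18-high cluster had 119 CPM in the control and 169 CPM in the PS-MP library, giving a ratio of 1.42 (1.23 to 1.64), with a UMI in 60.6% and 69.0% of cells. Stromal cells had 116 and 111 CPM, levels whose order with the control Akr1c18-high value cannot be told apart by counting error. The Edn2-high cluster had 29.5 CPM, below the Akr1c18-high cluster, and macrophage or monocyte-like cells had 11.6 and 9.39 CPM. Granulosa clusters ranged from 2.93 to 30.3 CPM in the control and from 3.28 to 29.9 CPM in the PS-MP library.

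Itgb5 was highest in macrophage or monocyte-like cells, at 184 CPM in the control and 156 CPM in the PS-MP library, giving a ratio of 0.847 (0.754 to 0.950), which was 1.02 with cells thinned to 3500 UMIs. The resident-profile macrophages, which had little Spp1, carried Itgb5 at 257 and 209 CPM. Stromal cells had 88.4 and 101.9 CPM, giving a ratio of 1.15 (1.07 to 1.24), and granulosa-like cells 83.5 and 80.7 CPM. The Akr1c18-high cluster had 26.3 and 34.8 CPM and the Edn2-high cluster 20.7 CPM. Endothelial cells had 12.8 and 21.1 CPM from 38 and 47 UMIs, giving a ratio of 1.64 (1.05 to 2.59).

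**Figure D4:**
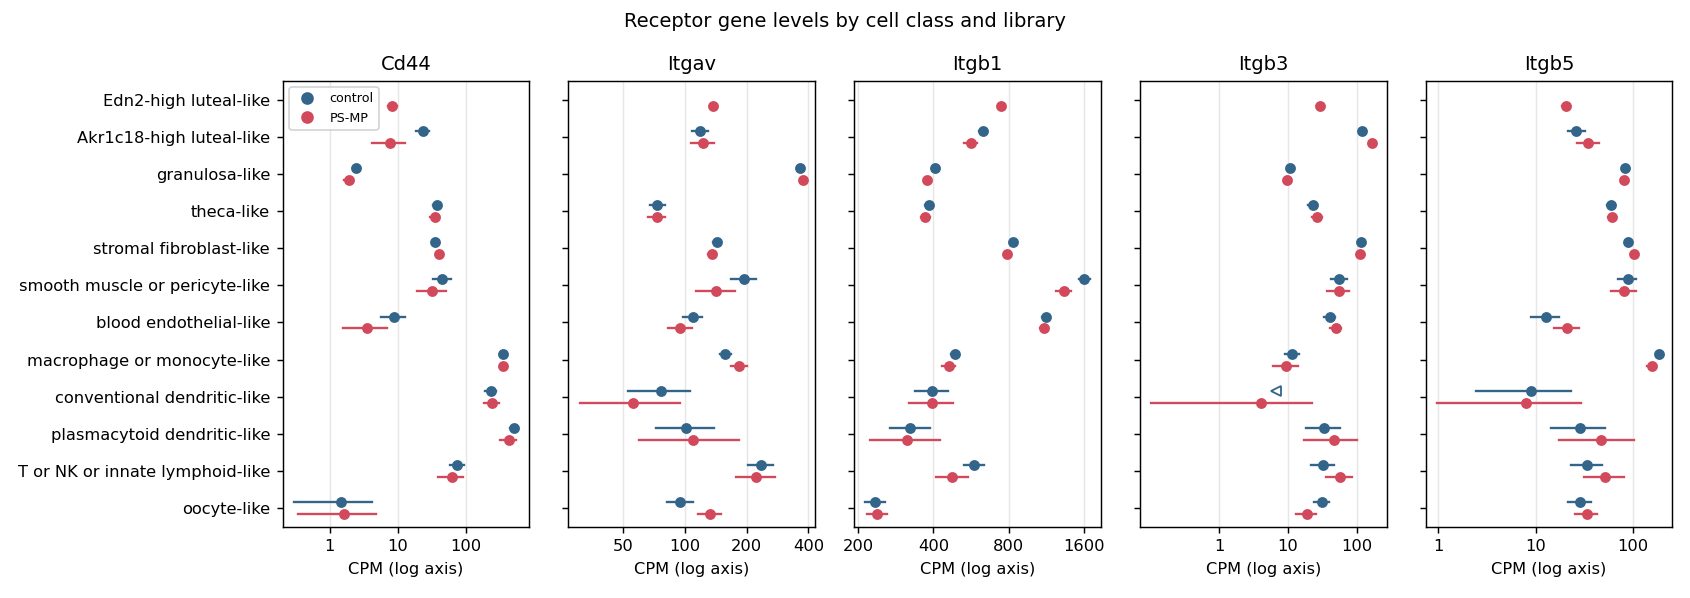
Levels of Cd44, Itgav, Itgb1, Itgb3 and Itgb5 by cell class and luteal-like cluster, in CPM on log axes, with 1 panel per gene and 95% counting intervals. Open symbols mark a count of 0 at its limit. Cd44 is highest in immune classes, Itgav in granulosa-like cells, Itgb1 in smooth muscle or pericyte-like cells, Itgb3 in the Akr1c18-high cluster and Itgb5 in macrophage or monocyte-like cells.

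UMIs of both subunits of a receptor were counted in single cells. Itgav and Itgb3 UMIs were found together in 54.5% of control and 49.6% of PS-MP cells of the Akr1c18-high cluster, in 34.9% and 30.5% of stromal cells and in 4.45% and 3.68% of macrophage or monocyte-like cells. Itgav with Itgb5 was found in 46.0% and 43.5% of granulosa-like cells, in 41.0% and 34.6% of macrophage or monocyte-like cells and in 33.7% and 31.7% of stromal cells. Itgav with Itgb1 was found in 85.7% and 83.9% of granulosa-like cells, against 46.6% and 38.7% of blood endothelial-like cells. These shares depend on depth, and the median was 15998 UMIs in control cells of the Akr1c18-high cluster against 8500 in control stromal cells.

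Differences of at least 1.5-fold were counted across the 6 members and the 6 classes with at least 200 cells in each library. Of 30 pairs of a member and a class at 20 CPM or more in a library, 6 differed by at least 1.5-fold: Spp1, Cd44 and Itgb3 in the luteal-like class, Spp1 in stromal cells, and Spp1 and Itgb5 in endothelial cells. In the luteal-like class, whose clusters differed between the libraries, 23.7% of all genes did so. With that class left out, 3 pairs remained. These were 1 of 6 members in stromal and 2 of 5 in endothelial cells, against 1.08% and 5.57% of all genes. In granulosa-like, theca-like and macrophage or monocyte-like cells 0 of 3, 0 of 5 and 0 of 5 members did so. The shares of all genes there were 0.531%, 1.95% and 5.48%. The receptor ratios over the other 5 classes lay between 0.873 and 1.16 for Itgav, 0.808 and 1.22 for Itgb3, 0.847 and 1.64 for Itgb5, and 0.409 and 1.15 for Cd44. These ranges include pairs under 20 CPM, which the count left out. The lowest Cd44 ratio was in endothelial cells, at 8.77 and 3.59 CPM from 26 and 8 UMIs. For Itgb3 the lowest was in macrophage or monocyte-like cells, at 11.6 and 9.39 CPM from 73 and 24 UMIs.

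**Figure D5:**
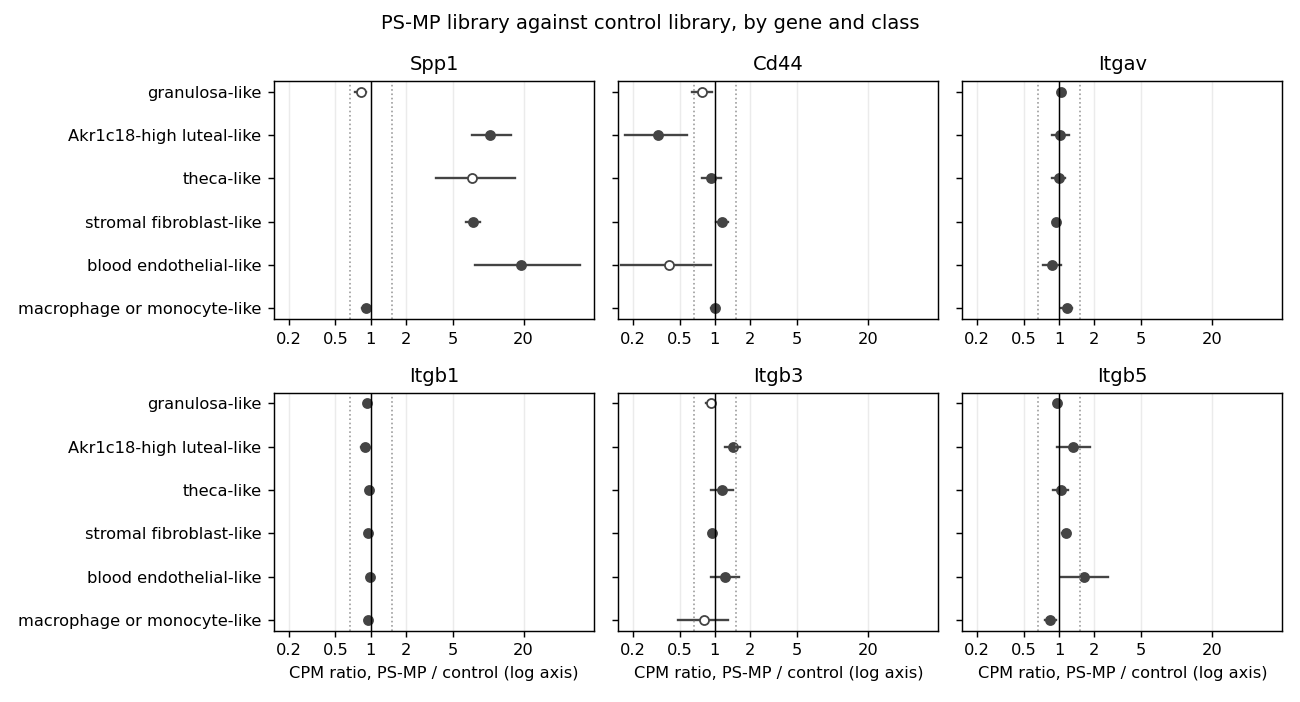
Ratio of the PS-MP to the control level of each member in the cell classes with at least 200 cells in each library, on a log axis, with 95% counting intervals; the luteal-like class is shown by its Akr1c18-high cluster. Lines mark a ratio of 1 and of 1.5 in either direction, and open symbols mark a gene under 20 CPM in both libraries. Spp1 lies above 1.5 in the Akr1c18-high cluster and in stromal and endothelial cells, and near 1 in macrophage or monocyte-like cells, and most receptor ratios lie near 1.

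Genes with roles around osteopontin were counted in lists. In macrophage or monocyte-like cells, 5 of 9 enzymes that cut, phosphorylate, dephosphorylate or cross-link osteopontin were at 20 CPM or more, and 3 of the 5 differed by at least 1.5-fold, against 5.48% of all genes of the class. Mmp9, which cleaves it, was at 41.1 and 84.9 CPM, giving a ratio of 2.07, while Mmp12 was at 135 and 83.4 CPM and the phosphatase gene Acp5 at 103 and 63.4 CPM, both with a ratio of 0.616. The median log2 ratio of the 5 was -0.19, against -0.01 over all genes of the class. Of 11 genes known from Spp1-expressing macrophages 2 were past 1.5-fold. Lpl, the lipoprotein lipase, was higher at 565 and 849 CPM and Arg1, which degrades arginine, was lower at 431 and 137 CPM. Gpnmb was at 617 and 650.4 CPM, and the list's median log2 ratio was -0.05. Of the other integrin subunits that bind osteopontin 4 of 7 were measured, and none was past 1.5-fold, with Itga4 at 152 and 133 CPM and Itga9 at 142 in both libraries. Of 10 adhesion genes measured 2 were, both higher: Vcl, which encodes the adaptor vinculin, at 48.9 and 74.7 CPM, and Parva, which encodes alpha-parvin, at 15.4 and 27.4 CPM.

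In stromal cells 10 of 13 other integrin ligands were measured. Of these, 1 was higher and 1 lower by at least 1.5-fold, against 1.08% of all stromal genes. Tnc was higher at 57.5 and 95.9 CPM, giving a ratio of 1.67. Ccn2, a matrix-bound growth regulator, was lower at 81.3 and 51.8 CPM, giving a ratio of 0.637. The median log2 ratio of the list was 0.07, against -0.02 over all stromal genes. Tnc was a leading gene of the stromal sub-cluster that held 113 control and 228 PS-MP cells. The part of that sub-cluster in the Tnc ratio was not tested. Of 11 hyaluronan and CD44 partners 1 was past 1.5-fold, Cemip, at 9.93 and 26.4 CPM, which is also one of the luteal markers above. None of the 11 genes of the adhesion machinery measured in stromal cells, and none of 5 other osteopontin-binding integrin subunits, was past 1.5-fold. In granulosa-like cells 1 of 9 hyaluronan and CD44 partners was past 1.5-fold, against 0.531% of all granulosa genes. This was Vcan, a hyaluronan-binding proteoglycan of the follicle, at 256 and 166 CPM, giving a ratio of 0.646. Of 4 other secreted phosphoproteins of the osteopontin family, 3 were listed in either library, and these were below 20 CPM in every class compared.

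Genes with levels most like each member were ranked by the correlation of log2 levels over 20 points, each a cell class or cluster in a library, among 8087 genes. Points of 1 library share their depth and free RNA, and the values are descriptions. Nearest to Spp1 were Cstb (0.873), Ptgs1 (0.854) and Id2 (0.765). Cd44 was nearest to Gripap1 (0.932), Taok3 (0.931) and Ptger4 (0.924), and Itgav to Tnpo1 (0.917), Igf1 (0.898) and Ank3 (0.897). For Itgb1 the closest was Myl6 (0.934), for Itgb3 Ttc28 (0.891), and for Itgb5 Lrp1 (0.954), a scavenger receptor gene.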

How the data were processed

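The authors deposited a matrix of raw UMI counts per gene and cell for each of the 2 libraries. The submitters' processing notes name GRCm39 and Seurat. The sources used here do not give the aligner or the cell calling. Cells with at least 500 genes and at most 25% mitochondrial UMIs were kept (14538 of 15373 control and 14412 of 15056 PS-MP cells), and 315 and 358 cells that scrublet called doublets at an expected rate of 5% were left out. Cells were clustered without batch integration in scanpy 1.11.5 (2000 variable genes, 30 components, 15 neighbours, Leiden 0.10.2 at resolution 0.5). Clusters were named from listed markers, which needed 3 markers at 20 CPM or more and a score of at least 0.15. The score was the mean over markers of the level relative to the highest cluster level, a rule chosen after the data were seen. Sub-clusters and Spp1-rich cells were likewise examined after the data were seen.

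UMIs were summed per class and library and divided by the class total, so a class level weighs deep cells more. Libraries held 160257194 and 145474989 UMIs before filtering. Poisson intervals for levels, Clopper-Pearson intervals for shares and conditional binomial intervals for ratios were exact at 95% and cover counting error only, and a limit for a count of 0 is 3 counts of the total. Ratios were computed for all genes at 20 CPM or more in a library. The ratio computation was tested on simulated counts. Reads were counted by gene symbol, and no gene model was used. The named genes were the 6 members, pathway genes past 1.5-fold with a few of those that were not, and the 3 genes most like each member, and further genes named from sub-clusters and Spp1-rich cells were chosen after their values were seen. The members and lists were chosen with earlier results of these data known.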

Additional observations from a re-analysis of the deposited data

Results flagged for a closer look

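The PS-MP to control ratio of Spp1 lay on opposite sides of 1 in different cell types, and the difference between cell types was not tested. It was 7.39 in stromal fibroblast-like cells, 18.9 in blood endothelial-like cells and 10.4 in the Akr1c18-high luteal-like cluster, whereas it was 0.487 in the H19-led granulosa cluster and 0.907 in macrophage or monocyte-like cells. Without the cells that held 10 or more Spp1 UMIs the ratios were 4.48, 3.76, 5.06, 1.32 and 1.01, in the same order. In the granulosa cluster those cells were 17 of the control and 6 of the PS-MP cells, and its ratio lay above 1 without them.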

How the results depend on the processing

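No paired analysis was possible because each group has 1 library. The Spp1 ratio in granulosa-like cells (0.817) was 0.937 as a mean over cells, 0 when a carried-over share was subtracted (the PS-MP level then came to 0), 2.73 without cells holding 10 or more Spp1 UMIs, 5.69 without the H19-led cluster and 19.9 with luteal-like cells pooled in, and the other settings gave values inside its counting interval. In macrophage or monocyte-like cells (0.907) it was 0.976 with at most 10% mitochondrial UMIs, 0.835 after the subtraction, 1.01 without Spp1-rich cells and 0.994 without the 3 sub-clusters led by genes of other cell types. In stromal cells (7.39) it was 4.48 without Spp1-rich cells and 16.4 without the Tnc-led sub-cluster. In theca-like cells (7.31) it was 1.58 with at most 10% mitochondrial UMIs, 2.94 with cells thinned to 3500 UMIs and 3.47 without Spp1-rich cells, and the subtraction gave no ratio because the control came to 0. The count of 6 pairs past 1.5-fold was 3 with a minimum of 50 CPM and 3 without the luteal-like class. Leaving out Spp1-rich cells, clusters, sub-clusters or the luteal-like class was chosen after seeing the data. For the other 32 pairs of a member and a class, 235 of 257 values stayed inside the counting interval. Of all 257, 16 lay on the other side of 1 from the reported ratio, and 5 of these were outside its interval: after the subtraction, Cd44 in granulosa-like cells (1.85 in place of 0.777) and Itgav in macrophage or monocyte-like cells (0.958 in place of 1.16), with thinned cells, Itgav in the luteal-like class (0.965 in place of 1.14) and Itgb5 in macrophage or monocyte-like cells (1.02 in place of 0.847), and at resolution 0.8, Itgb3 in theca-like cells (0.891 in place of 1.15). The cause of these shifts was not tested. Classes with few UMIs, such as theca-like and endothelial cells for Spp1, limit what the depth can show.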

Other observations

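Small immune and mural classes, with under 200 cells in a library, gave Spp1 values that rest on single cells. Plasmacytoid dendritic-like cells had no Spp1 UMI in 71 control cells, which allows up to 7.83 CPM, and 359 CPM in 22 PS-MP cells, where 1 cell held 43 of 46 UMIs. T, NK or innate lymphoid-like cells had 5.66 CPM in the control and 163 CPM in the PS-MP library, where 1 cell held 44 of 63 UMIs. Conventional dendritic-like cells had 17.9 and 72.2 CPM from 8 and 18 UMIs. Smooth muscle or pericyte-like cells had none in the control, which allows up to 2.97 CPM, and 5 UMIs or 8.55 CPM in the PS-MP library.

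In macrophage or monocyte-like cells, where 5.48% of all genes differed by at least 1.5-fold, 1 of 8 integrin ligands and 1 of 9 hyaluronan and CD44 partners measured did so, both higher in the PS-MP library. Fbn1, which encodes the microfibril protein fibrillin-1, was at 7.80 CPM in the control and 25.4 CPM in the PS-MP library. The class held a sub-cluster led by Col3a1, Col1a2 and Col1a1 with 10 of 742 control and 27 of 353 PS-MP cells, and its part in the Fbn1 level was not tested. Cemip, which takes part in hyaluronan breakdown, was at 5.57 and 42.3 CPM, and it is also one of the luteal markers used to gauge free RNA.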
